A study of Mus musculus with 9 samples.

Results

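MHC class I antigen presentation is described here through 33 named genes in mouse pancreatic cancer cells that lack or keep CD49b. The genes were given by symbol and found through the GENCODE M21 annotation, and all 33 are among the 49671 genes of the count tables. They comprise H2-K1, H2-D1 and B2m of the classical complex, 13 non-classical chains, 5 immunoproteasome genes, their 3 constitutive counterparts, 5 genes of peptide transport and trimming, 3 chaperones of the endoplasmic reticulum, and the regulator Nlrc5. Levels are read counts scaled to library size (CPM), on 1 scale for all 9 libraries.

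The bulk poly(A) RNA libraries fall into 4 groups. KO tumours (2 libraries) and WT tumours (3 libraries) grew under the skin of syngeneic C57BL/6 mice from the KPC49bKO and KPCWT lines, and were dissociated with enzymes before RNA was taken. KO cultures (2 libraries) and WT cultures (2 libraries) are the same lines on plastic. CD49b is the integrin alpha 2 chain, encoded by Itga2, and forms a collagen receptor. KPC is the usual name of a mouse model of pancreatic cancer, and the sources used here do not state the alleles of these lines, how Itga2 was disrupted, or the sex and age of the mice. Each genotype is 1 line, so a difference between KO and WT is a difference between these lines, and p-values measure the spread between these libraries. The labels give setting and batch the same value, so tumour growth, host cells and batch cannot be told apart. In bulk tumour RNA, fewer cells of a type and less RNA per cell cannot be told apart either.

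MHC class I molecules show peptides from inside a cell to CD8+ T cells. Proteasomes cut proteins into peptides, the TAP transporter carries these into the endoplasmic reticulum, and chaperones there load them onto a heavy chain paired with beta-2 microglobulin. Interferon gamma is known to raise most of these genes, in part through Nlrc5, which works at the promoters of class I genes, and tumour cells often keep the pathway low. Non-classical chains resemble the classical ones, vary less between individuals, and some of them show peptides or lipids to NK cells or to unusual T cells.

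The promoters of the classical genes and of their close relatives carry known interferon and NF-kB elements, and the windows of H2-K1, H2-D1, B2m, H2-Q6 and H2-Q7 are printed as examples of them. RefSeq windows of the 200 bases before a start (GRCm38.p6) were found for 25 of the 33 members. Each motif was searched on both strands. The NF-kB site of the class I enhancer (GGGGA followed directly by TTCCC) stood in the windows of H2-K1, H2-D1, H2-Q6 and H2-Q7, 4 of the 25 members, against 0.067% of 32817 windows of the same length. The interferon-regulatory element (GAAA, any 2 bases, GAAA) stood in those of B2m, H2-T22 and H2-T23, against 2.26% of all windows. The shorter form GAANNGAAA, chosen after the longer one had been searched, stood in 8 of the 25 members and in 4.99% of all windows. No member's window held both forms. The STAT site TTCNNNGAA stood in 1 of the 25 members (Psmb8) and in 5.48% of all windows, the Y box CCAAT in 15 members and 29.3% of all windows, and the X2 core TGACG in 14 members and 15.6%. Capitals mark the NF-kB site and the interferon-regulatory form, which reads TTTCACTTC where it lies on the other strand. The windows are chr17:34000348-34000547 (minus strand) for H2-K1, chr17:35262894-35263093 (plus) for H2-D1, chr17:35424650-35424849 (plus) for H2-Q6, chr17:35438955-35439154 (plus) for H2-Q7 and chr2:122147487-122147686 (plus) for B2m.
H2-K1: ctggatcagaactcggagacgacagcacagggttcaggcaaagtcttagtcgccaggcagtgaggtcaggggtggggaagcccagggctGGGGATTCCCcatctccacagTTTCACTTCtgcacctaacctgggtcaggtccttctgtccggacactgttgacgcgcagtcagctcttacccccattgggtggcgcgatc
H2-D1: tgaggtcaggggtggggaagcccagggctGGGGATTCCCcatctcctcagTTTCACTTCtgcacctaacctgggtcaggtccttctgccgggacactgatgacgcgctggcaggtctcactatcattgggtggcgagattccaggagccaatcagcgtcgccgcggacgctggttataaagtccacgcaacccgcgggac
H2-Q6: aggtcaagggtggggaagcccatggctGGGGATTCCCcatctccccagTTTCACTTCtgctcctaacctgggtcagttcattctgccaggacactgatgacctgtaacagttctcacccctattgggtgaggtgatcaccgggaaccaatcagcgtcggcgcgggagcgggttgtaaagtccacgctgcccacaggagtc
H2-Q7: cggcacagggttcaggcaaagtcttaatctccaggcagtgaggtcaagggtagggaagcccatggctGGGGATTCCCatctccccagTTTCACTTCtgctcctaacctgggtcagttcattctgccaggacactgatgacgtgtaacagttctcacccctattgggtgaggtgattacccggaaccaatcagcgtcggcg
B2m: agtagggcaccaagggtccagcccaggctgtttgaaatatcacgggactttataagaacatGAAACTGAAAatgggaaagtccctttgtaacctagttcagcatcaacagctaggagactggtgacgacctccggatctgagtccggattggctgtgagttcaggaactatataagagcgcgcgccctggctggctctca

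The 4 H2 windows hold the NF-kB site and then the shorter interferon-regulatory form, and the B2m window holds the longer form and no NF-kB site. A match of letters is a description and says nothing of whether a factor was bound in these cells. Most of the members lie in the MHC region of chromosome 17 (GRCm38): H2-K1 at 33996017-34000347, Tapbp at 33915899-33929292, Psmb9 at 34181987-34187764, Tap1 at 34187553-34197225, Psmb8 at 34197721-34201454, Tap2 at 34203527-34216321 and H2-D1 at 35262730-35267499. B2m lies on chromosome 2 at 122147686-122153083, and Nlrc5 on chromosome 8 at 94434356-94527272. Psmb9 and Tap1 run in opposite directions, and 212 bases of their exons overlap. The sources used here do not state whether counting used strand, so reads in those bases could count for either gene. Exons of other members overlap genes on the opposite strand too, with 1003 bases for H2-T22, 925 for H2-T10 and 904 for Tapbp. The overlap is 834 bases for Erap1, 498 for Psmb8 and 496 for H2-Q4, and Tapbp shares 149 bases with Zbtb22 on its own strand.

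Libraries held 16032912 to 21247023 counts. Itga2 had 44.6 and 64.1 CPM in KO tumours, against 119, 144 and 137 CPM in WT tumours, and 96.6 and 104 CPM in KO cultures, against 168 and 135 CPM in WT cultures. It was lower in both settings (log2 fold change -1.32 ± 0.18 (SE), edgeR adjusted p = 0.00602 in tumours and -0.64 ± 0.17, adjusted p = 0.0135 in culture), and its transcript was not lost in the KO line. The call in culture was lost without KO culture 1 (adjusted p = 0.113) or WT culture 1 (adjusted p = 0.173), and the edited bases are not given, so gene counts check the labels only in part. The summed level of 8 epithelial and ductal markers was 8345 to 10829 CPM in KO tumours and 5123 to 6395 CPM in WT tumours. It was 11043 to 11431 CPM in KO cultures and 11313 to 12368 CPM in WT cultures, so the sum was high in all groups. In culture, 1 of the 8 was called higher in KO and 3 lower, beside 9.27% and 16.2% of all genes. Epcam, an adhesion molecule of epithelia, was at 0 and 0.0695 CPM in KO cultures, against 3.54 and 3.46 CPM in WT cultures. The T cell genes Cd3e, Cd4, Cd8a and Cd8b1 were at 0 in all 4 cultures.

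In culture, KO cells had less RNA than WT cells for the inducible proteasome subunits Psmb8 and Psmb9, for the TAP transporter and tapasin and for 7 of 9 non-classical chains tested, while H2-K1 and H2-D1 did not pass the test. Of 28 members tested, 12 were called lower in KO cultures, 2 were called higher and 14 were not called (edgeR quasi-likelihood test, adjusted p under 0.05). Over all 13573 genes tested, 16.2% were called lower and 9.27% higher. The median log2 fold change of the members was -0.28, beside -0.00030 for all genes. The 5 members not tested, H2-Q1, H2-Q2, H2-Q6, Cd1d1 and Nlrc5, had too few counts in these 4 libraries. The groups did not overlap for 14 members lower and 7 higher in KO, beside 29.2% and 32.7% of all genes.

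Psmb8 and Psmb9 encode the catalytic subunits that replace Psmb5 and Psmb6 in the immunoproteasome. Psmb8 had 0.501 and 0.278 CPM in KO cultures, 9 and 4 reads, against 7.46 and 8.69 CPM in WT cultures. Psmb9 had 0.334 and 0.417 CPM in KO cultures, 6 reads each, against 4.49 and 7.51 CPM in WT cultures. The groups were far apart for both, with log2 fold changes of -4.35 ± 0.38 (SE, adjusted p = 5.3e-06) and -4.02 ± 0.44 (adjusted p = 3.15e-05). Psmb10, the third inducible subunit, had 22.5 and 29.3 CPM in KO cultures, against 29.96 and 43.2 CPM in WT cultures, and was not called (adjusted p = 0.0805), though it was without KO culture 2 (adjusted p = 0.0327) or WT culture 1 (adjusted p = 0.0165). The subunits Psme1 and Psme2 of the PA28 activator and the constitutive subunits Psmb5, Psmb6 and Psmb7 did not pass the test, with log2 fold changes between -0.32 and 0.05. Set against its constitutive partner per kilobase of exon, Psmb8 over Psmb5 was 0.00054 and 0.000225 in KO cultures, against 0.00866 and 0.00742 in WT cultures. Psmb9 over Psmb6 was 0.000801 and 0.000708 in KO cultures, against 0.00874 and 0.0107 in WT cultures, so Psmb8 and Psmb9 were scarce in both lines and scarcer in KO. Psmb10 over Psmb7 was 0.226 and 0.259 in KO cultures, against 0.300 and 0.327 in WT cultures, so the third pair was nearer to level.

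Tap1 and Tap2, the paired chains of the peptide transporter, moved with them. Tap1 had 2.06 and 2.71 CPM in KO cultures, against 9.23 and 10.3 CPM in WT cultures (log2 fold change -2.08 ± 0.27, adjusted p = 0.000127). Tap2 had 5.23 and 3.54 CPM in KO cultures, against 15.2 and 14.6 CPM in WT cultures (-1.79 ± 0.25, adjusted p = 0.000216). Tapbp encodes tapasin, which holds the empty heavy chain at the transporter. It had 33.05 and 27.03 CPM in KO cultures, against 68.1 and 58.8 CPM in WT cultures, and was lower by a smaller amount (-1.12 ± 0.18, adjusted p = 0.000659). Its relative Tapbpl, a peptide editor that works away from the transporter, went the other way, with 35.3 and 37.9 CPM in KO cultures, against 21.8 and 24.4 CPM in WT cultures (0.62 ± 0.18, adjusted p = 0.0203), but lost its call without KO culture 2, WT culture 1 or WT culture 2 (adjusted p = 0.0897, 0.128 and 0.0598). Erap1, which trims peptides to the length class I binds, and the chaperones Calr, Canx and Pdia3, which fold the heavy chain, were not called, with log2 fold changes between -0.17 and 0.22.

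Among the classical genes, H2-K1 had 677 and 619 CPM in KO cultures, against 566 and 565 CPM in WT cultures (log2 fold change 0.15 ± 0.17, adjusted p = 0.544). H2-D1 had 559 and 599 CPM in KO cultures, against 504 and 515 CPM in WT cultures (0.14 ± 0.16, adjusted p = 0.567). Both heavy chains were thus abundant in either line, with KO above WT in every library and no call. B2m, the invariant light chain, had 167 and 144 CPM in KO cultures, against 103 and 104 CPM in WT cultures (0.54 ± 0.16, adjusted p = 0.0242). That call was lost without KO culture 1 (adjusted p = 0.257), WT culture 1 (adjusted p = 0.102) or WT culture 2 (adjusted p = 0.136).

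Of the 9 non-classical chains tested in culture, 7 were called lower in KO cultures, none was called higher, and H2-T23 and H2-T24 were not called. In 1 fit of all 9 libraries, H2-Q4, H2-Q7, H2-T10, H2-T22 and Mr1 lost their calls (adjusted p = 0.0501, 0.0563, 0.114, 0.182 and 0.0614), and H2-T24 was called higher (adjusted p = 0.0449). H2-Q10, a secreted chain known mainly from liver, had 0.223 and 0.625 CPM in KO cultures, against 10.4 and 11.4 CPM in WT cultures (log2 fold change -4.76 ± 0.39, adjusted p = 2.81e-06). H2-Q7, a Qa-2 chain, had 0.111 and 0.278 CPM in KO cultures, against 1.90 and 1.83 CPM in WT cultures (-3.31 ± 0.57, adjusted p = 0.000963). H2-Q4 had 5.34 and 5.84 CPM in KO cultures, against 19.7 and 17.2 CPM in WT cultures (-1.77 ± 0.22, adjusted p = 8.36e-05). Each of these lay apart between the lines in every library. H2-M3, which presents formylated peptides of bacteria and mitochondria, had 8.90 and 12.6 CPM in KO cultures, against 23.4 and 28.1 CPM in WT cultures, and fell by 1.31 on the log2 scale (adjusted p = 0.000806). H2-T10, which GENCODE M21 annotates as a polymorphic pseudogene, had 1.34 and 2.15 CPM in KO cultures, against 4.99 and 4.18 CPM in WT cultures. It fell by 1.45 (adjusted p = 0.00779). H2-T22, which with H2-T10 is a known ligand of some gamma delta T cells, had 35.2 and 39.5 CPM in KO cultures, against 49.5 and 62.7 CPM in WT cultures. It fell by 0.63 (adjusted p = 0.021), and lost its call without KO culture 1 (adjusted p = 0.151) or WT culture 2 (adjusted p = 0.236). Mr1, which shows vitamin B metabolites to MAIT cells, had 13.4 and 13.8 CPM in KO cultures, against 21.6 and 20.8 CPM in WT cultures. It fell by 0.68 (adjusted p = 0.0196), and lost its call without KO culture 1, WT culture 1 or WT culture 2 (adjusted p = 0.0848, 0.098 and 0.0585). H2-T23, which encodes Qa-1, the ligand of the NK receptor chain NKG2A, had 132 and 149 CPM in KO cultures, against 89.2 and 116 CPM in WT cultures (adjusted p = 0.0968).

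The untested members are given as reads. Cd1d1, which presents lipids to NKT cells, had no read in either KO culture, against 8 and 15 reads in WT cultures. It was 7.97-fold lower when KO is set at a floor of 3 reads over the group. The 95% interval of its ratio from counting error ends at 0.167. H2-Q6 had 1 and 0 reads in KO cultures, against 10 and 6 reads in WT cultures, a ratio of 0.0601 with a 95% interval from counting error of 0.00143 to 0.387. Nlrc5 had 1 and 0 reads in KO cultures, against 3 and 7 reads in WT cultures, a ratio of 0.0962 (0.00222 to 0.676). All 3 were thus at the edge of detection in both lines. H2-Q1 and H2-Q2 had at most 9 reads in any culture, and in tumours they stayed at or below 1.73 and 0.292 CPM.

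**Figure D1:**
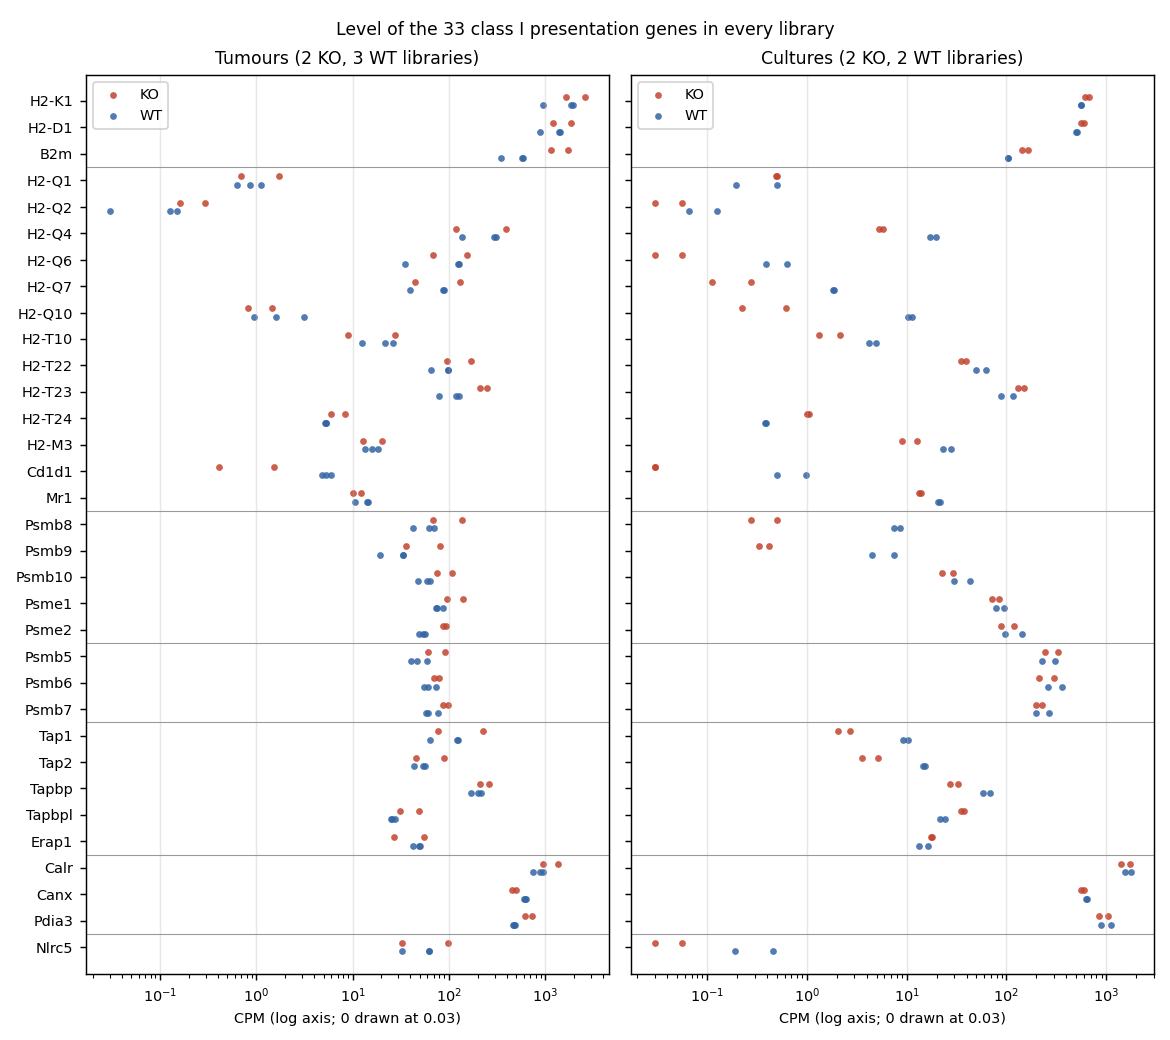
CPM of the members in each library on a log axis, by role, for tumours (left) and cultures (right), with KO in red, WT in blue and 0 drawn at 0.03. H2-K1, H2-D1 and B2m lie above 100 CPM in all 9 libraries, while Psmb8 and Psmb9 lie below 0.51 CPM in KO cultures and above 19 CPM in every tumour.

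In tumours, 5 members were called higher in KO tumours (B2m, H2-T23, Psmb10, Psme2 and Pdia3), 1 was called lower (Cd1d1), and 26 of the 32 tested were not called. Over the 16257 genes tested, 8.78% were called higher and 10.9% lower. The median log2 fold change was 0.40 over the members and -0.0056 over all genes. KO and WT tumours did not overlap for 12 members higher and 2 lower in KO, beside 27.3% and 26.4% of all genes. The count of members called higher was 1 without WT tumour 1, 2 without WT tumour 2 and 9 without KO tumour 1, and the calls listed as lost below are those of single libraries left out.

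B2m had 1163 and 1739 CPM in KO tumours, against 578, 589 and 345 CPM in WT tumours (log2 fold change 1.502 ± 0.27, adjusted p = 0.0138), and this call held without any 1 library. The heavy chains did not follow it past the spread of single tumours. H2-K1 had 1662 and 2617 CPM in KO tumours, against 1878, 1943 and 949 CPM in WT tumours (0.41 ± 0.34, adjusted p = 0.43). H2-D1 had 1222 and 1842 CPM in KO tumours, against 1402, 1440.1 and 888 CPM in WT tumours (0.28 ± 0.26, adjusted p = 0.483). Per kilobase of exon, the 2 heavy chains together stood at 0.769 and 0.794 times the level of B2m in KO tumours, against 1.76, 1.78 and 1.66 times in WT tumours. In culture the same ratio was 2.31 and 2.65 in KO cultures, against 3.24 and 3.23 in WT cultures. The ratio was thus lower in KO in both settings, lower in tumours than in culture for each line, and close among tumours of a line whose levels differed.

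H2-T23 had 213 and 249 CPM in KO tumours, against 118, 127 and 79.4 CPM in WT tumours (1.08 ± 0.21, adjusted p = 0.0165), and lost its call without WT tumour 1 (adjusted p = 0.0554). Cd1d1 had 0.409 and 1.51 CPM in KO tumours, against 5.35, 4.78 and 5.92 CPM in WT tumours (-2.48 ± 0.53, adjusted p = 0.0216), so it was low in KO in both settings, and lost its call without WT tumour 1, 2 or 3 (adjusted p = 0.0701, 0.0688 and 0.0542). H2-Q4 had 120.1 and 395 CPM in KO tumours, against 297, 311 and 138 CPM in WT tumours, and the groups overlapped throughout (0.02 ± 0.52, adjusted p = 0.979). H2-Q6 and H2-Q7 overlapped likewise, with 68.4 and 153 CPM for H2-Q6 in KO tumours, against 124, 126 and 35.2 CPM in WT tumours. H2-Q7 had 44.6 and 130.2 CPM in KO tumours, against 87.2, 88.7 and 39.3 CPM in WT tumours. These 2 genes share 5.99% and 5.9% of their possible 150-base reads with other H2 genes, so part of their counts could be exchanged.

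Psmb8 had 67.9 and 137 CPM in KO tumours, against 63.0, 70.2 and 42.0 CPM in WT tumours (0.79 ± 0.32, adjusted p = 0.13). Psmb9 had 35.9 and 81.9 CPM in KO tumours, against 33.3, 33.8 and 19.1 CPM in WT tumours (1.01 ± 0.37, adjusted p = 0.104). Neither passed the test, although both were below 0.51 CPM in the KO line in culture. That outcome depended on the method. Psmb9 was called higher in KO tumours with no filter (adjusted p = 0.0231) and with DESeq2 (adjusted p = 0.0392). It was also called when all 9 libraries shared 1 fit (adjusted p = 0.0441). Psmb8 was called higher with no filter (adjusted p = 0.0445). Without KO tumour 1, the log2 fold changes of Psmb8 and Psmb9 were 1.21 and 1.49. Psme2 had 86.3 and 93.5 CPM in KO tumours, against 48.5, 54.1 and 56.8 CPM in WT tumours (0.74 ± 0.12, adjusted p = 0.00948), and lost its call without WT tumour 1 (adjusted p = 0.0536) or WT tumour 2 (adjusted p = 0.0513). Of its possible reads, 12.1% are shared with Psme2b. Psmb10 had 76.1 and 108 CPM in KO tumours, against 58.8, 64.0 and 48.2 CPM in WT tumours (0.67 ± 0.19, adjusted p = 0.048), and lost its call without KO tumour 3 or WT tumour 1, 2 or 3 (adjusted p = 0.138, 0.143, 0.106 and 0.118). Pdia3, the oxidoreductase of the loading complex, had 729 and 615 CPM in KO tumours, against 463, 470.0 and 493 CPM in WT tumours (0.48 ± 0.13, adjusted p = 0.0434), and lost its call without KO tumour 1 or WT tumour 1, 2 or 3 (adjusted p = 0.118, 0.162, 0.156 and 0.0639).

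No gene of peptide transport was called in tumours. Tap1 had 77.1 and 229 CPM in KO tumours, against 122, 124 and 64.5 CPM in WT tumours (0.54 ± 0.46, adjusted p = 0.445). Tap2 had 46.2 and 90.0 CPM in KO tumours, against 53.5, 56.3 and 43.4 CPM in WT tumours, and was called higher without KO tumour 1 (adjusted p = 0.0411). Tapbp had 212 and 259 CPM in KO tumours, against 203, 214 and 170.0 CPM in WT tumours, nearly level between the lines (0.24 ± 0.15, adjusted p = 0.284). Nlrc5, the regulator, had 32.8 and 97.9 CPM in KO tumours, against 62.3, 62.6 and 32.4 CPM in WT tumours (0.29 ± 0.47, adjusted p = 0.695). Erap1 had 26.9 and 55.7 CPM in KO tumours, against 42.4, 50.7 and 48.6 CPM in WT tumours (-0.22, adjusted p = 0.615), and its groups overlapped. The chaperone Canx had 500 and 448 CPM in KO tumours, against 608, 621 and 636 CPM in WT tumours (-0.41 ± 0.12, adjusted p = 0.0578). It was called lower with library totals, a filter of 1 CPM, DESeq2 and 1 fit of all libraries (adjusted p = 0.0226, 0.0360, 0.0107 and 0.0420). Also without KO tumour 1, Psme1 and Tapbpl were called higher (adjusted p = 0.0214 and 0.0167). Without KO tumour 3, Erap1 was called lower and Psmb5 and Calr higher (adjusted p = 0.0199, 0.0297 and 0.0389), and without WT tumour 3, Psmb7 was called higher (adjusted p = 0.0307).

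**Figure D2:**
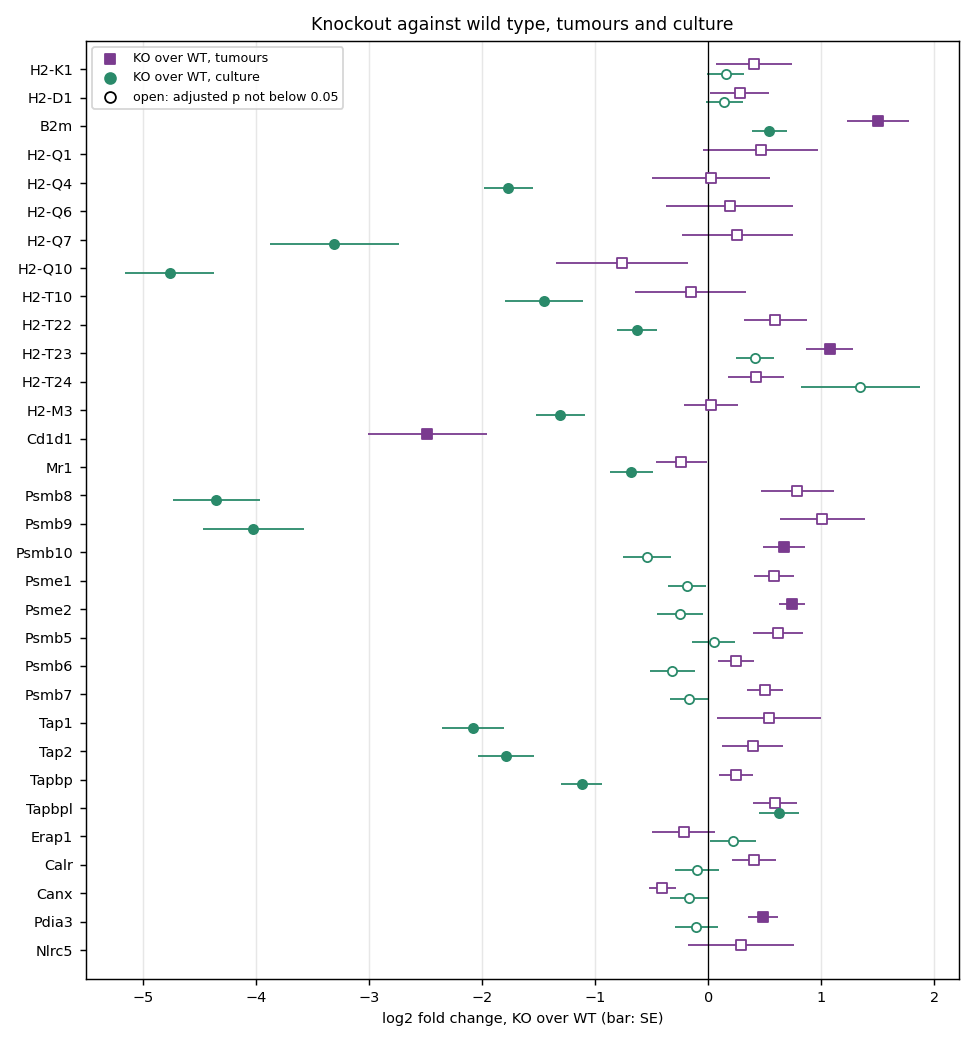
Log2 fold change of KO over WT for each member tested, in tumours and in culture, with bars of 1 SE and filled marks for calls (edgeR, adjusted p under 0.05). Of those called in culture, Psmb8, Psmb9, Tap1, Tap2, Tapbp, H2-Q4, H2-Q7, H2-Q10, H2-T10 and H2-M3 lie far below 0 there. In tumours, most members lie near or above 0.

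Whether the effect of the knockout differed between the settings was tested in 1 fit of all 9 libraries, as the log2 fold change in tumours minus that in culture. It was called for 6 of 32 members, all with a more positive effect in tumours, and for 4.15% of all 16793 genes in that direction and 1.54% in the other. The median difference was 0.95 over the members and 0.053 over all genes. Psmb8 differed by 5.12 ± 0.60 (SE, adjusted p = 0.00149) and Psmb9 by 5.02 ± 0.71 (adjusted p = 0.00366), and these calls held without any 1 library. Tap2 differed by 2.16 ± 0.40 (adjusted p = 0.0111), Tapbp by 1.34 ± 0.24 (adjusted p = 0.00902), H2-Q10 by 3.97 ± 0.83 (adjusted p = 0.0203) and Tap1 by 2.61 ± 0.66 (adjusted p = 0.044). Tap2 lost its call without KO culture 2 (adjusted p = 0.0625) or WT culture 2 (adjusted p = 0.0503), and Tapbp without KO culture 2 (adjusted p = 0.0512). H2-Q10 lost it without KO culture 1, WT culture 1 or WT culture 2 (adjusted p = 0.116, 0.0536 and 0.0841). Tap1 lost it without either KO culture, either WT culture, or WT tumour 1 or 2, with adjusted p from 0.0568 to 0.203. B2m, at 0.94 ± 0.35, was not called (adjusted p = 0.15), nor were H2-K1 and H2-D1 (adjusted p = 0.823 and 0.909).

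The 12 members called lower in KO cultures were all uncalled in tumours, where their log2 fold changes ran between -0.76 for H2-Q10 and 1.01 for Psmb9. With no filter, Psmb8 and Psmb9 were called higher in KO tumours. Of these 12, 6 were called in the test of the difference. The effect in culture that picked them is part of that difference, so this share is not read as a result. Without KO tumour 1, which was the lower of the KO tumours for most of the pathway, 12 members were called in the test of the difference, with H2-Q4, H2-Q7, H2-T22, H2-M3, Psmb10 and Psme1 added (adjusted p from 0.0104 to 0.0267). Without WT culture 1, Psmb10 and Psme2 were added (adjusted p = 0.047 and 0.0364), and without KO tumour 3, Erap1 was called in the opposite direction (adjusted p = 0.024).

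In both lines H2-K1, H2-D1, B2m, the transporter and the subunits Psmb8, Psmb9 and Psmb10 were higher in tumours than in culture, and the constitutive subunits were lower. The non-classical chains were divided in WT, where 7 of 12 were called higher and 3 lower (H2-Q10, H2-M3 and Mr1), while in KO 8 of 12 were called higher and none lower. Psme2 fell by 1.17 in WT tumours relative to WT cultures (log2, adjusted p = 0.000255) and was not called in KO (adjusted p = 0.405). In KO, 20 of 32 members were called higher in tumours than in culture and 4 lower, beside 32.9% and 26.4% of all genes. In WT, 18 of 32 were called higher and 9 lower, beside 36.1% and 29.6%. The median log2 fold change was 1.59 over the members in KO and 1.29 in WT, beside 0.17 for all genes in each, and changes are read against that value. Groups did not overlap for 23 members higher and 7 lower in KO, beside 43.4% and 35.5% of all genes, and for 20 higher and 9 lower in WT, beside 44.8% and 36.6%. These tumours hold host cells that carry the same genes, and the part of host and cancer cells in each level was not tested.

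Psmb8 was higher in tumours than in culture by 7.98 ± 0.50 on the log2 scale in KO (adjusted p = 1.46e-06) and by 2.85 ± 0.33 in WT (adjusted p = 3.23e-05). Psmb9 was higher by 7.28 ± 0.59 in KO (adjusted p = 5.37e-06) and by 2.26 ± 0.39 in WT (adjusted p = 0.000486). Tap1 was higher by 6.01 ± 0.56 in KO (adjusted p = 1.24e-05) and by 3.40 ± 0.46 in WT (adjusted p = 8.89e-05). The KO line was lower for these genes in culture, and in tumours none of them was called between the lines. With no filter, Psmb8 and Psmb9 were called higher in KO tumours than in WT tumours. The reads of Nlrc5 were 561 and 1810 in KO tumours, against 1 and 0 in KO cultures, a ratio of 2155 with a 95% counting interval of 386 to 85151. In WT, Nlrc5 was higher in tumours by 7.32 ± 0.70 on the log2 scale (adjusted p = 9.85e-06). H2-Q6 had 1170 and 2828 reads in KO tumours, against 1 and 0 in KO cultures, a ratio of 3634 (652 to 143558), and was higher by 7.51 ± 0.78 in WT tumours than in WT cultures (adjusted p = 1.62e-05). Cd1d1 had 7 and 28 reads in KO tumours, against 0 in both KO cultures. It was 10.6-fold higher when KO cultures are set at a floor of 3 reads over the group, and its 95% counting interval starts at 8.18. H2-Q7 was higher in tumours by 8.82 ± 0.79 on the log2 scale in KO (adjusted p = 1.01e-05) and by 5.26 ± 0.57 in WT (adjusted p = 2.23e-05), and H2-Q4 by 5.53 ± 0.59 in KO (adjusted p = 2.67e-05) and 3.75 ± 0.51 in WT (adjusted p = 9.34e-05). H2-T24 was higher by 2.80 ± 0.35 in KO (adjusted p = 6.75e-05) and 3.75 ± 0.38 in WT (adjusted p = 1.34e-05). Tapbpl was called in neither line (adjusted p = 0.608 in KO and 0.414 in WT). Scaled by library totals alone, it was called higher in both (0.57, adjusted p = 0.0401 in KO and 0.66, adjusted p = 0.0141 in WT).

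The heavy chains and B2m were called higher in both lines. H2-K1 was higher in tumours by 1.72 ± 0.32 on the log2 scale in KO (adjusted p = 0.000858) and by 1.49 ± 0.30 in WT (adjusted p = 0.00116), and H2-D1 by 1.40 ± 0.25 and 1.29 ± 0.23 (adjusted p = 0.000711 in KO and 0.000654 in WT). B2m was higher by 3.23 ± 0.28 in KO (adjusted p = 8.36e-06) and by 2.28 ± 0.26 in WT (adjusted p = 2.75e-05). H2-Q10 went the other way in WT, where it fell by 2.502 ± 0.47 in tumours relative to culture (adjusted p = 0.000842), and in KO it was not called (adjusted p = 0.0868), but was without WT tumour 3 (adjusted p = 0.0424), with no filter (adjusted p = 0.0272) or with library totals (adjusted p = 0.0347). Of the chaperones, Calr fell by 0.93 ± 0.18 in WT tumours relative to WT cultures (adjusted p = 0.00111). Pdia3 was lower in tumours in both lines, with -0.50 ± 0.17 in KO (adjusted p = 0.0248) and -1.07 ± 0.15 in WT (adjusted p = 0.000131). Scaled by library totals alone, Pdia3 was not called in KO (-0.07, adjusted p = 0.684). With that scaling H2-M3 and Mr1 were not called in WT either (-0.22 and -0.23, adjusted p = 0.428 and 0.323). It called 22 members higher and 7 lower in WT, and 24 higher and 3 lower in KO. The WT calls of H2-T22, H2-M3 and Psmb10 were lost without single libraries, with adjusted p up to 0.257 for H2-T22 and 0.226 for Psmb10 without WT culture 1 and 0.145 for H2-M3 without WT culture 2. The KO calls of H2-T23, Psme1 and Pdia3 were lost likewise, with adjusted p of 0.0926 for H2-T23 without KO culture 1, 0.236 for Psme1 without KO tumour 3 and 0.168 for Pdia3 without KO culture 2. Without KO tumour 1, H2-Q1, H2-M3 and Calr were called in KO as well (adjusted p = 0.0375, 0.0111 and 0.0112).

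**Figure D3:**
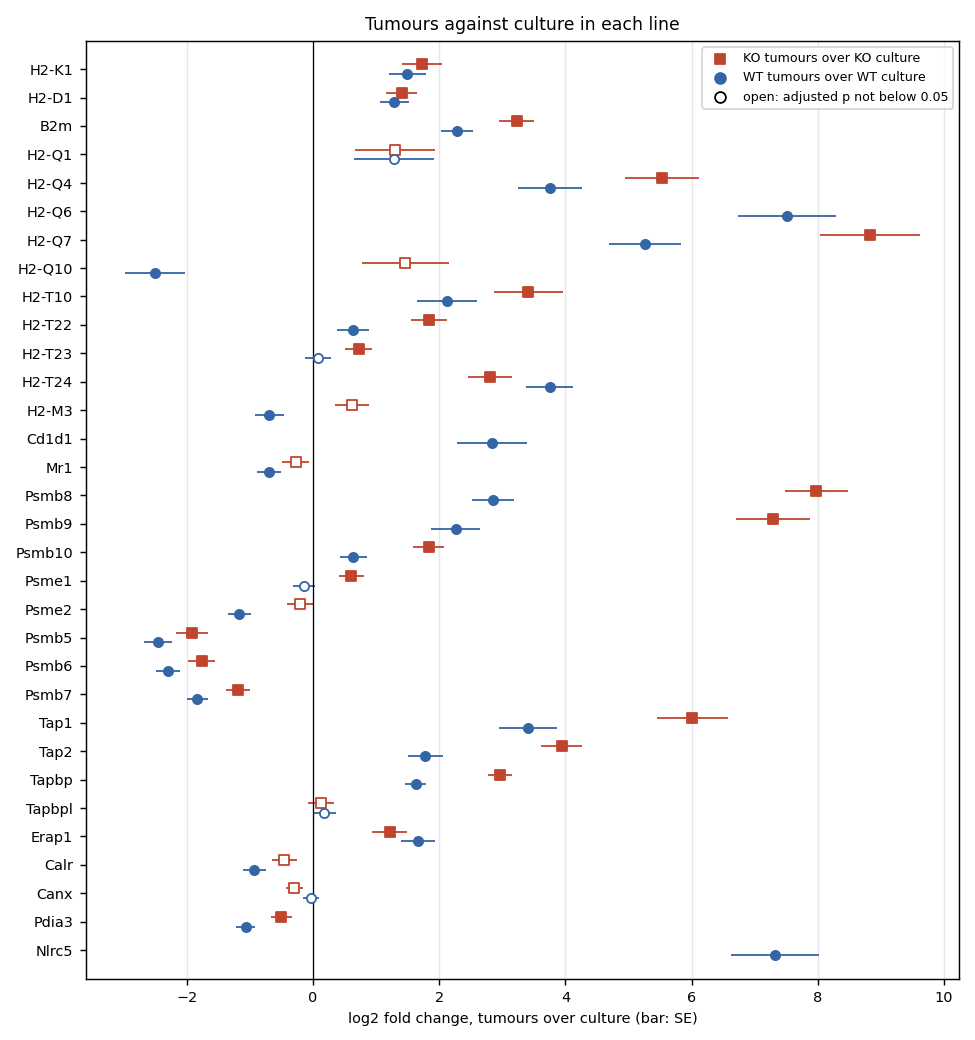
Log2 fold change of tumours over culture for each member tested, in KO and in WT, with bars of 1 SE and filled marks for calls (edgeR, adjusted p under 0.05), except KO for H2-Q6, Cd1d1 and Nlrc5, which had at most 1 read in KO cultures and were called higher. Psmb8 lies at 7.98 in KO and 2.85 in WT, and Psmb5, Psmb6 and Psmb7 lie below 0 in both lines.

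The constitutive catalytic subunits moved opposite to the inducible ones. Psmb5 had 90.5 and 61.5 CPM in KO tumours, against 246 and 328 CPM in KO cultures, and 40.7, 47.3 and 59.1 CPM in WT tumours, against 229 and 311 CPM in WT cultures. It was lower in tumours in both lines, with a log2 fold change of -1.92 ± 0.25 in KO (adjusted p = 9.7e-05) and -2.46 ± 0.22 in WT (adjusted p = 7.23e-06), and Psmb6 and Psmb7 were called lower in both lines as well. Per kilobase, the 3 inducible subunits together stood at 0.433 and 0.955 times the 3 constitutive ones in KO tumours and at 0.681, 0.657 and 0.359 times in WT tumours. In culture the ratio was 0.0301 and 0.0293 in KO cultures and 0.0463 and 0.0487 in WT cultures. The ranges of the tumours overlapped between the lines, and those of the cultures did not. Psmb8 over Psmb5, also per kilobase, was 0.200 and 0.592 in KO tumours, against 0.412, 0.394 and 0.189 in WT tumours.

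**Figure D4:**
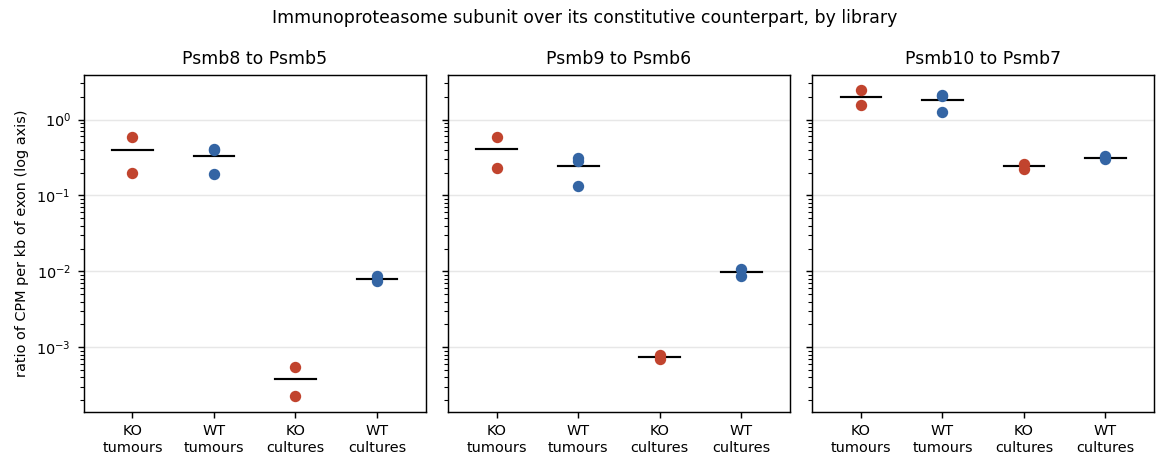
Ratio per kilobase of each inducible catalytic subunit to its constitutive partner in each library (points) with the group mean (line), on a log axis, for KO tumours, WT tumours, KO cultures and WT cultures. Psmb8 over Psmb5 and Psmb9 over Psmb6 are below 0.001 in KO cultures, between 0.007 and 0.011 in WT cultures and above 0.13 in all 5 tumours.

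KO tumours differed from each other by more than the lines did for H2-K1, H2-D1, H2-Q4, Tap1, Psmb8 and Nlrc5, but not for B2m. KO over WT in tumours was 1.32-fold for H2-K1, 1.21 for H2-D1, 1.02 for H2-Q4 and 1.45 for Tap1. It was 1.73 for Psmb8, 1.22 for Nlrc5 and 2.83 for B2m. KO tumour 3 was above KO tumour 1 by a factor of 1.57 for H2-K1, 1.51 for H2-D1, 1.496 for B2m, 3.29 for H2-Q4, 2.97 for Tap1, 2.02 for Psmb8 and 2.99 for Nlrc5. For Psmb5 the factor was 0.680 and for Calr 0.700, so the constitutive subunit and this chaperone lay the other way. The median factor over 14005 genes with a mean of at least 1 CPM was 0.990, and 15.3% of them were above 1.5. WT tumour 3 stood at 0.497 times the mean of WT tumours 1 and 2 for H2-K1, 0.625 for H2-D1, 0.592 for B2m, 0.454 for H2-Q4, 0.525 for Tap1, 0.631 for Psmb8 and 0.519 for Nlrc5. For Psmb5 it stood at 1.34, over all genes the median was 1.00, and 7.91% of genes were below 1/1.5. WT tumours 1 and 2 were nearer to each other than any other pair of replicates (chi-square per gene 6.55, against 25.2 to 43.9 in the other pairs).

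The T cell and NK marker sums were highest in KO tumour 3 and lowest in WT tumour 3, as H2-K1 was. KO tumour 1 lay above WT tumours 1 and 2 in the T cell sum but below them for H2-K1. KO tumour 3 was also highest in the leukocyte, dendritic and macrophage sums. WT tumour 3 was lowest in none of the other host sums given here. The summed level of 9 T cell markers was 34.4 and 81.0 CPM in KO tumours, against 27.1, 28.004 and 9.71 CPM in WT tumours. That of 5 NK and cytotoxic markers was 6.78 and 23.8 CPM in KO tumours, against 10.9, 10.8 and 2.30 CPM in WT tumours. Cd8a, the CD8 chain of cytotoxic T cells, had 11.9 and 23.4 CPM in KO tumours, against 8.61, 9.25 and 1.66 CPM in WT tumours (1.42 ± 0.66, adjusted p = 0.174). KO tumour 3 was thus highest and WT tumour 3 lowest in both sums, as for H2-K1, H2-D1 and Psmb8. The sum of 6 pan-leukocyte markers followed another order, with 115 and 258 CPM in KO tumours, against 117, 126 and 167 CPM in WT tumours. Markers of dendritic cells had 21.9 and 51.9 CPM in KO tumours, against 22.4, 22.9 and 24.6 CPM in WT tumours. Markers of macrophages had 247 and 346 CPM in KO tumours, against 208, 232 and 345 CPM in WT tumours, and the cultured lines had 187 to 227 CPM in the same sum. Markers of fibroblasts had 267 and 434 CPM in KO tumours, against 1102, 752 and 2115 CPM in WT tumours. Endothelial markers had 31.3 and 60.4 CPM in KO tumours, against 70.3, 56.5 and 130 CPM in WT tumours. Neutrophil markers had 5.61 and 12.4 CPM in KO tumours, against 3.84, 8.30 and 52.1 CPM in WT tumours. Between KO and WT tumours, 1 of 9 T cell markers (Cd8b1) and 1 of 6 dendritic markers were called higher. None of 6 leukocyte or 8 macrophage markers was called, and 3 of 6 fibroblast and 1 of 5 endothelial markers were called lower. The leukocyte marker Ptprc was called higher in KO tumours with DESeq2, no filter and 1 fit of all libraries. Its log2 fold changes there were 0.86, 0.85 and 0.87 (adjusted p = 0.0142, 0.0120 and 0.0175). Of 8 epithelial and ductal markers, 3 were called higher and 2 lower. Over all genes tested there, 8.78% were called higher and 10.9% lower, and counts near those shares are no result about a list. The part of these cells in the levels of the class I genes was not tested. In the cultures, 6 of the 9 T cell markers, 4 of the 5 NK markers and 3 of the 8 macrophage markers were at 0 in all 4 libraries. The T cell sum was still 7.96 and 6.74 CPM in KO cultures, against 14.03 and 10.19 CPM in WT cultures. WT tumour 3, at 9.71 CPM, thus lay below both WT cultures in that sum. The leukocyte sum was 17.4 and 20.1 CPM in KO cultures, against 11.5 and 13.4 CPM in WT cultures. Ptprc, the pan-leukocyte CD45 gene, was part of it, with 8.51 and 10.15 CPM in KO cultures, against 2.46 and 3.07 CPM in WT cultures.

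**Figure D5:**
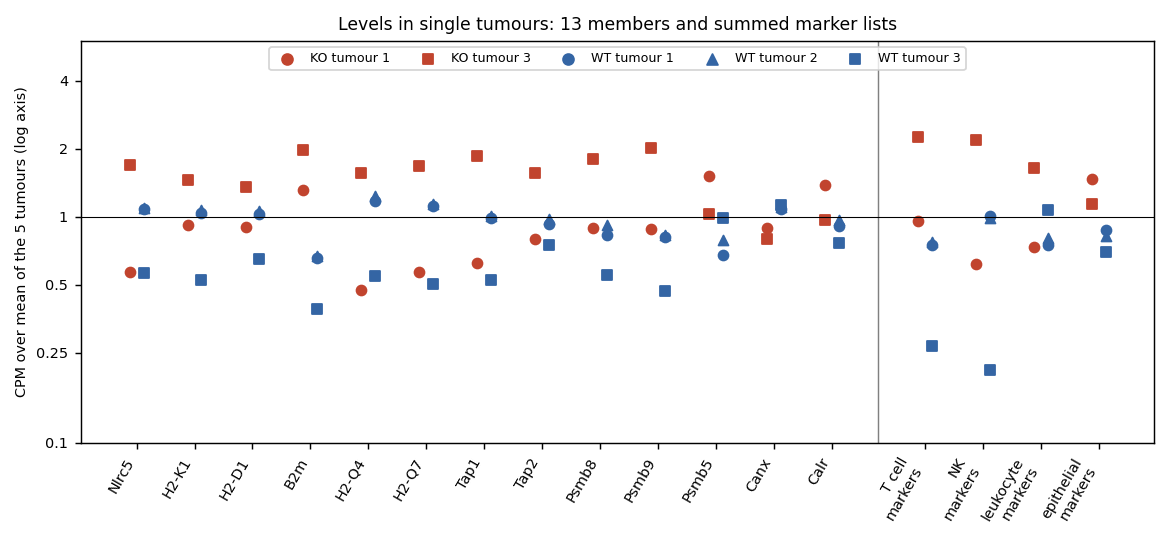
CPM in each of the 5 tumours over their mean, on a log axis, for 13 members (left) and for summed T cell, NK, leukocyte and epithelial markers (right), with KO tumours in red, WT tumours in blue and a mark for each tumour. KO tumour 3 lies above KO tumour 1, and WT tumour 3 below WT tumours 1 and 2, from Nlrc5 to Psmb9 and for the T cell and NK sums, while for Psmb5 both orders are turned round.

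The wider pathway was read from 4 companion lists, whose counts stand beside shares over all genes of 8.78% called higher and 10.9% lower in KO tumours and of 9.27% higher and 16.2% lower in KO cultures. Counts near those shares are no result about a list. Of 8 other class I-like genes tested in culture, 2 were called higher in KO and 2 lower, and of 11 tested in tumours, 2 were called higher and none lower. Azgp1, a secreted class I-like protein, was higher in KO in both, with 1.99 and 8.43 CPM in KO tumours, against 0.195, 0.302 and 0.128 CPM in WT tumours, and 8.51 and 11.0 CPM in KO cultures, against 1.71 and 3.33 CPM in WT cultures (log2 fold change 4.60 ± 0.72 in tumours, adjusted p = 0.0089, and 1.91 ± 0.32 in culture, adjusted p = 0.000794). H2-K2 fell by 1.24 in culture on the log2 scale (adjusted p = 0.0317). Of 24 genes of the proteasome core, 3 were called higher in KO tumours, and 5 lower in KO cultures. Between settings, 21 of the 24 were called lower in tumours than in culture in KO and 22 in WT, beside 26.4% and 29.6% of all genes. Pomp, the maturation factor of new proteasomes, had 64.6 and 60.2 CPM in KO tumours, against 45.0, 46.3 and 54.7 CPM in WT tumours, and 69.9 and 91.2 CPM in KO cultures, against 111 and 144 CPM in WT cultures. Its effect differed between settings by 1.02 (adjusted p = 0.037).

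Of 18 genes of cytosolic trimming and ER quality control, 2 were called higher and 1 lower in KO tumours, and 3 were called higher and 3 lower in KO cultures. The aminopeptidase Lap3 was higher in KO in both, with 88.6 and 88.3 CPM in KO tumours, against 39.5, 48.1 and 50.9 CPM in WT tumours, and 199 and 234 CPM in KO cultures, against 127 and 151 CPM in WT cultures. The bleomycin hydrolase Blmh was lower in both, with 45.9 and 46.6 CPM in KO tumours, against 102, 93.6 and 98.4 CPM in WT tumours, and 85.5 and 112 CPM in KO cultures, against 139 and 155 CPM in WT cultures. For both genes the lines lay apart in the 2 settings alike. The log2 fold change of Lap3 was 0.92 ± 0.14 in tumours (adjusted p = 0.00799) and 0.59 ± 0.16 in culture (adjusted p = 0.0182), and that of Blmh was -1.10 ± 0.11 in tumours (adjusted p = 0.00294) and -0.62 ± 0.17 in culture (adjusted p = 0.0183).

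Of 32 regulators of class I genes tested in tumours, 4 were called higher in KO and 1 lower, and of 31 tested in culture, 3 were called higher and 1 lower. Irf7, a factor of the interferon response, had 71.9 and 90.1 CPM in KO tumours, against 41.1, 29.9 and 46.3 CPM in WT tumours, and 4.23 and 2.57 CPM in KO cultures, against 14.7 and 13.2 CPM in WT cultures. It was called higher in tumours (1.03 ± 0.20, adjusted p = 0.0167) and lower in culture (-2.06 ± 0.27, adjusted p = 0.000137), and lost the call in tumours without WT tumour 1 (adjusted p = 0.0572). Stat2, a factor downstream of type I interferon, had 91.3 and 115 CPM in KO tumours, against 48.3, 43.5 and 49.1 CPM in WT tumours, and 16.3 and 11.5 CPM in KO cultures, against 15.7 and 15.7 CPM in WT cultures. It was called in tumours alone (1.11 ± 0.13, adjusted p = 0.00415), and its difference between settings was called as well (1.30 ± 0.26, adjusted p = 0.0148), though not without KO culture 2, WT culture 1 or WT culture 2 (adjusted p = 0.0621, 0.0506 and 0.0664). Irf1, a direct activator of Tap1 and Psmb9, had 68.1 and 131 CPM in KO tumours, against 77.5, 80.7 and 56.3 CPM in WT tumours, with no call in either setting (adjusted p = 0.295 in tumours and 0.151 in culture).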

How the data were processed

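Both count tables, 1 for cultures and 1 for tumours, were deposited as raw counts per Ensembl gene. The submitters' processing notes name GRCm38, featureCounts, STAR 2.5.2b, Subread 1.5.2, fastp 0.23.1 and DESeq2 without roles. Duplicates were removed by unique molecular identifiers, per the labels' protocols. The sources used here do not state the strand setting or the rule for reads with several positions. The authors also deposited a scaled signal for each gene and rlog values on a log2 scale, and neither was tested.

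Symbols, positions and exon lengths came from GENCODE M21, promoter sequences from RefSeq (GRCm38.p6). Within a setting, KO and WT were compared on that setting's counts with edgeR 4.0.16 (R 4.3.3; TMM scaling, filterByExpr with a minimum count of 10 and total of 15, quasi-likelihood F test, Benjamini-Hochberg adjustment over all genes tested, threshold 0.05). Contrasts of settings and the difference of KO effects came from 1 fit of 4 group means over 9 libraries. An SE is the log2 fold change over the square root of F. Printed CPM use TMM factors over all 9 libraries. Alternatives were other scalings and filters, DESeq2 1.42.0, limma-voom (limma 3.58.1), a replicate block, 1 fit of all libraries, and each library left out. The edgeR steps were tested on simulated data.

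Members and lists were chosen with earlier results of these data known. Values in every library of a setting are given for members that passed the test of KO against WT there, and for the main genes of each role. Members that passed only between tumours and culture, such as H2-T24, Psmb6, Psmb7, Calr and Psme1, are given without them. From each companion list up to 4 genes with the smallest p in a comparison could be named, plus Itga2, Ptprc, Cd8a and Irf1 (another gene of this rule is not reported here), and Epcam was named after its values were seen. Promoters were printed for H2-K1, H2-D1 and B2m and, chosen after the motif search, for H2-Q6 and H2-Q7. The KO tumour columns are numbered 1 and 3 and the labels 1 and 2, so only the group of the column numbered 3 was assigned, and it is called KO tumour 3. Intervals on reads cover counting error only.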

Additional observations from a re-analysis of the deposited data

Results flagged for a closer look

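For 6 members and 3 companion genes, a test of the difference between the KO effect in tumours and that in culture passed the threshold (edgeR, 1 fit of all 9 libraries). On the log2 scale it was 5.12 for Psmb8, 5.02 for Psmb9, 3.97 for H2-Q10, 2.61 for Tap1, 2.16 for Tap2 and 1.34 for Tapbp. Among the companion genes it was 3.07 for Irf7, 1.30 for Stat2 and 1.02 for Pomp. For the 6 members KO was lower in culture and not called in tumours, though Psmb8 and Psmb9 were called higher in KO tumours with no filter. Irf7 was called in opposite directions in the 2 settings. H2-Q10 differs from the others in its levels: 0.818 and 1.46 CPM in KO tumours, against 1.60, 0.955 and 3.15 CPM in WT tumours, and 0.223 and 0.625 CPM in KO cultures, against 10.4 and 11.4 CPM in WT cultures, so that WT was low in tumours and KO was low throughout. Stat2 lost its call without KO culture 2, WT culture 1 or WT culture 2 (adjusted p = 0.0621, 0.0506 and 0.0664).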

How the results depend on the processing

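Depth limited H2-Q1, H2-Q2, H2-Q6, Cd1d1 and Nlrc5 in culture, where 1 or more of their groups had few or no reads. Leaving out 1 library sets 1 culture or KO tumour against the rest, whose spread it is assumed to share. Of the single-gene values recomputed, the call stayed the same in 415 of 467 for KO against WT in tumours and 374 of 407 in culture. It did so in 572 of 623 for the difference of effects, 600 of 623 for KO tumours against culture and 594 of 623 for WT. A change of sign with no call in either fit counts as the same. For KO against WT in tumours, leaving out 1 library moved Tap1 between -0.41 and 1.12 on the log2 scale. H2-Q4 moved between -1.04 and 0.64, and Nlrc5 between -0.66 and 0.88. With a call in either fit, only Canx turned round, between WT tumours and WT cultures. Its log2 fold change was 0.44 scaled by library totals alone, against -0.03 with TMM.

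In culture, 1258 genes were called higher and 2203 lower in KO, against 3689 and 3898 with a replicate block, which moved the higher share of calls to 48.6% beside 36.3% and the members called to 4 higher and 18 lower, beside 2 and 12. It added H2-T23 and H2-T24 as higher and Psmb10, Psme1, Psme2, Psmb6, Psmb7 and Canx as lower. The labels do not say that a number marks a shared day or batch. Replicate 1 minus replicate 2 correlated between the lines at r = 0.513 across 12283 genes, a hint of pairing from only 2 pairs. In tumours the block was left out, since the KO column numbers differ from the labels, and fits over all libraries blocked the culture pairs alone; there Tap1 lost its call in the difference of effects (adjusted p = 0.0799). A single fit of all libraries called 8 members lower in culture. Without 1 library, 570 to 986 genes were called higher, and 0 to 1 members.

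In tumours, members called higher in KO were 3 with library totals, 10 with no filter, 8 with DESeq2 and 9 in 1 fit of all libraries. Members called lower were 2, Cd1d1 and Canx, with library totals, a filter of 1 CPM, DESeq2 and 1 fit. Without 1 library, 417 to 2154 genes were called higher and 754 to 1989 lower, with 1 to 9 members higher and 0 to 2 lower.

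For the difference of effects, 1308 genes were called higher and 567 lower with no filter and 1063 and 562 with DESeq2, with 16 and 11 members higher. Without 1 library, 232 to 1148 genes were called higher and 44 to 503 lower, with 3 to 12 members higher and 0 to 1 lower. Between settings, library totals moved the median of all genes to 0.60 in KO and 0.64 in WT, beside 0.17, left 2636 genes called lower in KO and 3154 in WT, and moved the higher share of calls to 74.4% and 72.7%, beside 55.5% and 54.9%. The cause of these changes was not tested.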
